A study of Solanum lycopersicum with 18 samples.

Results

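Jasmonate is a fatty acid-derived hormone that plants make on wounding and during root and flower development. Its synthesis starts in the plastid, where a lipoxygenase, an allene oxide synthase and an allene oxide cyclase act on linolenic acid in turn, and it goes on in the peroxisome, where an OPDA reductase and rounds of beta-oxidation finish the molecule. The conjugated hormone binds the F-box receptor COI1, JAZ repressors are then degraded, and the transcription factor MYC2 is released to act on its targets. Jasmonate is known to slow root elongation, and related lipoxygenase branches give divinyl ethers and leaf aldehydes from the same fatty acids.

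The genes described here were found by name and chosen by their mean TPM. Of 29922 genes in the files, 13 had a symbol equal to COI1, MYC2 or AOC or beginning with LOX, AOS, OPR or JAZ, and the 10 of these with the highest mean TPM over all 18 libraries were taken. They are the lipoxygenases LOX1.1 and loxD, the allene oxide synthases aos and AOS2, the cyclase AOC, the reductases opr2, OPR1 and opr3, the receptor gene Coi1 and the transcription factor gene MYC2. All 10 were found again among RefSeq genes (assembly SLM_r2.1), where the synonyms give tomloxA as another name of LOX1.1 and LeAOS1 as another name of aos. No symbol began with JAZ. The mean TPM that chose the genes ran from 824 for opr2, 243 for LOX1.1 and 123 for OPR1 down to 2.60 for aos and 1.81 for loxD, while LOXB with 1.32 lay just outside. These means are a description. The ranking used no zone or genotype label, but the members were chosen with earlier results of these data known. A mean over all libraries can also rest on 1 zone: LOX1.1 had mean deposited TPM of 525 in the WT and 860 in the *dgt* differentiation zone. Its highest mean in the other zones was 53.0.

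RNA was measured in 3 zones (meristem, elongation and differentiation) of roots of 7-day-old tomato seedlings, either WT or carrying the allele dgt1-1 of the cyclophilin gene DIAGEOTROPICA, in libraries of 3 biological replicates for each zone and genotype. All plants were of the cultivar Ailsa Craig and grew on the same sucrose medium without further treatment, and the mutation was present in the whole plant. Each replicate pooled many dissected root portions: the meristem reached from the tip to where the root turns more transparent, the elongation zone from there to the first hair bulge, and the differentiation zone was a portion above it. No gene in the files was named DGT, so the mutated gene could not be checked by its symbol.

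Libraries held 17919441 to 29133603 expected counts (median 19874283), most of all WT meristem replicate 2. Replicates of 1 group differed by more than sampling noise in every pair. By edgeR's biological coefficient of variation, replicates were most apart in the WT meristem (0.305) and least in the *dgt* meristem (0.0968), with 0.116 to 0.177 elsewhere. Levels are given below as scaled TPM, the deposited TPM multiplied by 1 factor per library (0.768 to 1.61) that puts all libraries on the TMM scale used by the tests. On deposited TPM the median gene was higher in *dgt* than in WT by 0.10 on the log2 scale in the meristem, 0.33 in the elongation zone and 0.12 in the differentiation zone, and on scaled TPM these medians were -0.07, 0.00 and -0.01. The 7 cell cycle genes listed as markers of dividing cells summed to 716 to 1200.4 scaled TPM in the WT meristem and 549 to 676 in the *dgt* meristem, against 77.5 to 109.8 in the elongation zone libraries. In the differentiation zone they summed to 123.1 to 131.6 in WT and 74.6 to 80.4 in *dgt*. The largest part of the meristem sums was pcna, with 539 deposited TPM in WT meristem replicate 2 against 353 and 351 in replicates 1 and 3. CycA1, CycA2, CycA3, CycB2 and cdkB2 were instead lowest in replicate 2 of this group. CycA3 was not highest in the meristem, with WT means of 8.96, 10.3 and 13.1 deposited TPM from the meristem outwards. Of 9 names listed for the absorbing zone 4 were found. Their sum was 100.2 to 121.1 in the meristem libraries, 358 to 403 in the WT and 238 to 287 in the *dgt* elongation zone, and 608 to 713 in the WT and 491 to 633 in the *dgt* differentiation zone, while FRO1, the root ferric reductase, was listed at 0 in every meristem and elongation zone library. Of 14 names listed for green shoot tissue 6 were found, and none was at 0 throughout: they summed to 6.53 to 11.4 in the WT elongation zone and 67.3 to 101.5 in *dgt*, to 31.4 to 54.3 and 190.0 to 260.2 in the differentiation zone, and to 17.2, 91.4 and 26.5 in WT meristem replicates 1, 2 and 3 and 30.9 to 35.1 in the *dgt* meristem. The part of these marker differences between the genotypes in the results below was not tested. These are bulk samples, in which fewer cells of a type and less RNA per cell cannot be told apart.

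**Figure D1:**
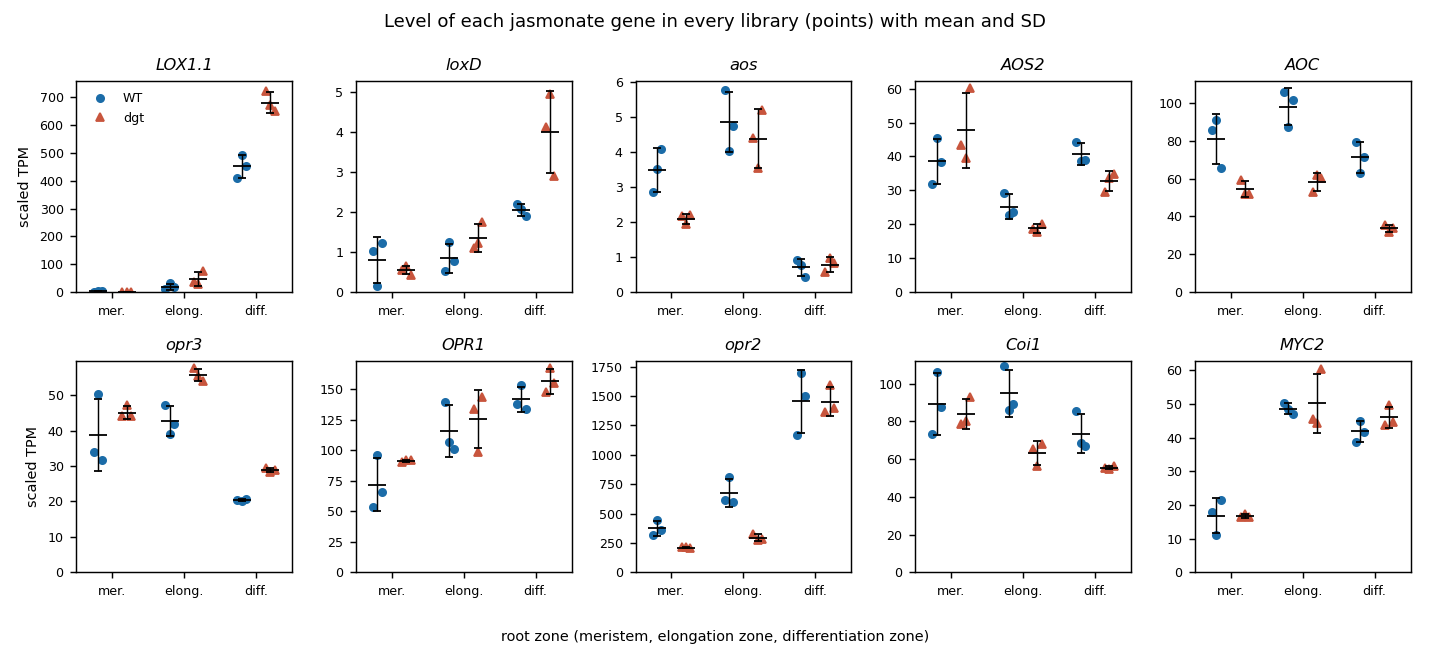
Scaled TPM of each of the 10 genes (vertical axes, from 0) in the 3 root zones (horizontal axis), with 1 point per library (circles WT, triangles *dgt*) and the mean ± SD of 3 libraries as bars. AOC lies lower in *dgt* in all zones, LOX1.1 and loxD are highest in the differentiation zone, and opr2 is lower in *dgt* in the meristem and elongation zone and alike in level in the differentiation zone.

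Whether *dgt* roots differ from WT in the expression of these genes was tested within each zone, with edgeR's quasi-likelihood test fitted on all genes and p-values adjusted over all genes tested. All 10 genes passed the filter on low counts in every comparison. Called here means an adjusted p under 0.05. In *dgt*, the cyclase gene AOC fell in every zone, opr2 and Coi1 each fell in a pair of zones, and opr3 and LOX1.1 rose in the elongation and differentiation zones. In the elongation zone 5 of 10 genes were called, 2 higher (LOX1.1, opr3) and 3 lower (opr2, Coi1, AOC), where 27.1% of 20079 tested genes were called, 14.9% higher and 12.2% lower. The differentiation zone also had 5 of 10, 3 higher (LOX1.1, opr3, loxD) and 2 lower (Coi1, AOC), against 29.5% of 20547 genes, 16.1% higher and 13.4% lower. In the meristem 3 of 10 were called, all lower (opr2, AOC, aos), against 22.8% of 19926 genes. Of the meristem calls none was higher, where 14.5% of genes were called higher and 8.31% lower. Changes over 2-fold were fewer, namely LOX1.1 and opr2 in the elongation zone and AOC in the differentiation zone, and none in the meristem, where 14%, 13% and 12.9% of all tested genes in these zones passed both limits. The median log2 fold change of the 10 genes was -0.04 in the elongation zone, 0.15 in the differentiation zone and -0.28 in the meristem, beside 0.01, 0.01 and -0.04 for all genes tested. Libraries of the genotypes did not overlap for 3 of the 10 genes in the meristem, 5 in the elongation zone and 6 in the differentiation zone, where 42.1%, 44.5% and 45.7% of all tested genes did not overlap. The counts of 3, 5 and 6 of 10 are near these shares.

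**Figure D2:**
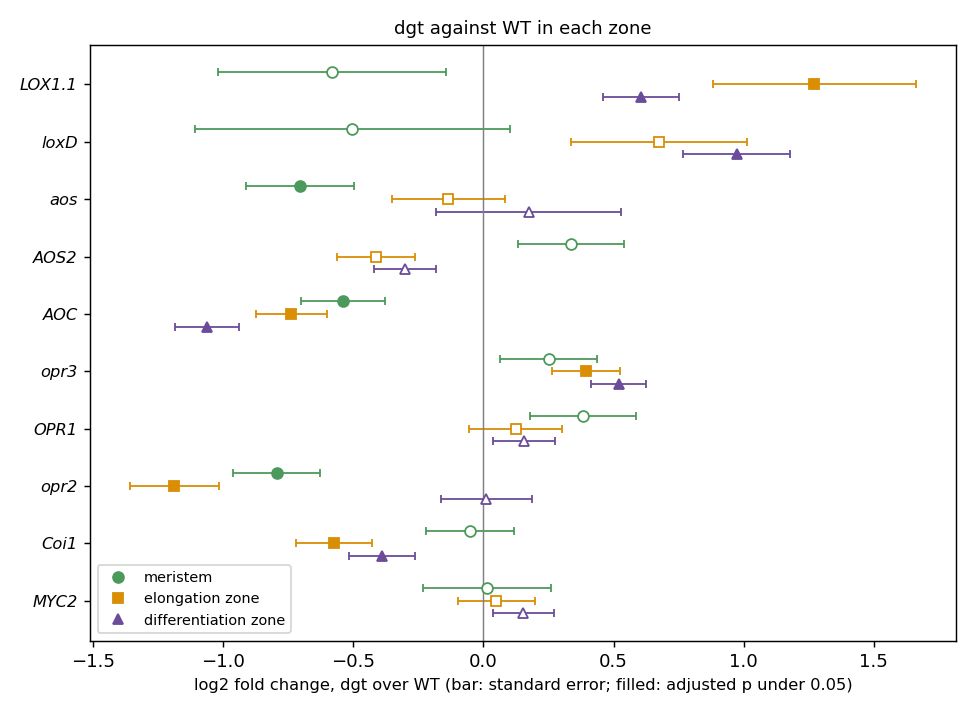
Log2 fold change of *dgt* over WT (horizontal axis) for each of the 10 genes (vertical axis), by zone; bars are standard errors of fits on 6 libraries and filled symbols have an edgeR adjusted p under 0.05. AOC lies left of 0 with a filled symbol in all 3 zones, and opr3 lies right of 0 in all 3, filled in the elongation and differentiation zones.

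The number of meristem calls moved with single libraries, over all genes as well. Without WT meristem replicate 2, 7 genes were called there: opr2, AOC, aos and loxD lower and OPR1, opr3 and AOS2 higher, where 52.7% of all genes were called in place of 22.8%. On leaving out *dgt* meristem replicate 1, 2 or 3 in turn, edgeR called 0 of the 10, where 9.93% to 11% of all genes were called. An unadjusted p under 0.05 was reached by 3 of the 10 each time, and the share of all genes at this unadjusted limit was not counted. The log2 fold change of opr2 was then -0.81, -0.81 and -0.77, close to its value on all libraries, with edgeR adjusted p of 0.0763, 0.0703 and 0.0715.

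The lipoxygenases LOX1.1 and loxD differed in level and in their course along the root. From meristem to elongation zone in WT the log2 fold change was 2.64 for LOX1.1 and 0.11, not called, for loxD. LOX1.1, whose product tomloxA is known for the lipoxygenase branch that does not lead to jasmonate, had 1.28, 5.53 and 3.40 scaled TPM in the WT meristem and 2.32, 1.98 and 2.33 in *dgt*. Elongation zone libraries had 10.9, 31.5 and 17.0 in WT and 35.8, 30.3 and 77.1 in *dgt*, so that the lowest *dgt* library lay below the highest WT library. Differentiation zone libraries had 408, 493 and 454 in WT and 721, 671 and 648 in *dgt*, with no overlap. The rise in *dgt* was 2.41-fold in the elongation zone (log2 fold change 1.27, standard error 0.39, edgeR adjusted p = 0.0325) and 1.52-fold in the differentiation zone (0.60, standard error 0.15, edgeR adjusted p = 0.0102). The elongation zone call was lost with DESeq2 (adjusted p = 0.0986) and on leaving out replicate 1 or 3 of WT or replicate 3 of *dgt* (edgeR adjusted p = 0.0762, 0.104 and 0.15), and the differentiation zone call in the fit on all 18 libraries (edgeR adjusted p = 0.321) and without *dgt* replicate 1 (0.0608). The meristem value of -0.58 had a standard error of 0.44. The change of the *dgt* effect from meristem to elongation zone was 1.89 on the log2 scale (standard error 0.60, edgeR adjusted p = 0.0387), while the test over all zones together gave an adjusted p of 0.0719.

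loxD, the plastid lipoxygenase known to feed jasmonate synthesis in wounded tomato leaves, was the lowest of the 10. Its expected counts were low, from 8.00 to 255 per library. The WT meristem had 1.03, 0.161 and 1.23 scaled TPM, with replicate 2 far below the others, against 0.440 to 0.658 in *dgt*. Libraries of the differentiation zone had 2.19, 2.08 and 1.89 in WT and 4.12, 4.94 and 2.89 in *dgt*. All *dgt* libraries were above all WT libraries there, a rise of 1.96-fold (log2 fold change 0.97, standard error 0.21, edgeR adjusted p = 0.00471). Elongation zone means of 0.842 ± 0.364 and 1.35 ± 0.347 (SD, n = 3 each) overlapped between the genotypes.

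Among the 10 the allene oxide synthase genes aos and AOS2, whose enzymes turn the lipoxygenase product into an unstable epoxide, gave a single call between genotypes, that of aos in the meristem. AOS2 had 32.0, 45.3 and 38.4 scaled TPM in the WT meristem and 43.3, 39.6 and 60.1 in *dgt*. It had 29.3, 22.7 and 23.5 against 18.6, 17.7 and 20.1 in the elongation zone and 44.4, 38.8 and 38.9 against 29.4, 33.7 and 34.9 in the differentiation zone. The *dgt* libraries were thus all below the WT libraries in the last pair of zones, with log2 fold changes of -0.41 (standard error 0.15, edgeR adjusted p = 0.0630) and -0.30 (0.12, edgeR adjusted p = 0.0794) that missed the threshold, and the meristem value was 0.34 (standard error 0.20). The *dgt* effect on AOS2 moved by -0.72 on the log2 scale from meristem to elongation zone (standard error 0.24, edgeR adjusted p = 0.0459), while the test over all zones together missed the threshold (edgeR adjusted p = 0.0606). aos, which codes for the other allene oxide synthase, was lower in the *dgt* meristem (2.17, 1.94 and 2.20 against 2.86, 3.51 and 4.10 in WT, log2 fold change -0.71, standard error 0.21, edgeR adjusted p = 0.0445). Its elongation zone means of 4.86 ± 0.865 in WT and 4.39 ± 0.835 in *dgt* and its differentiation zone means of 0.715 ± 0.247 and 0.791 ± 0.207 (SD, n = 3 each) differed by less than the spread between replicates.

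AOC, the cyclase that sets the stereochemistry of the jasmonate precursor OPDA, was the gene among the 10 that was called in every zone. In the meristem its libraries had 85.7, 91.0 and 65.7 scaled TPM in WT and 59.3, 52.0 and 52.1 in *dgt*. The elongation zone had 105.5, 87.0 and 101.4 in WT and 52.9, 61.9 and 60.4 in *dgt*, and the differentiation zone 79.3, 62.7 and 71.5 against 35.6, 31.9 and 33.8. No *dgt* library reached a WT library of its zone. AOC fell by 0.54 on the log2 scale in the meristem (standard error 0.16, edgeR adjusted p = 0.0476), by 0.74 in elongation zone libraries (0.14, edgeR adjusted p = 0.00220) and by 1.06 in the differentiation zone (0.12, edgeR adjusted p = 9.31e-05), which made WT 1.45-fold, 1.67-fold and 2.09-fold higher. The elongation and differentiation zone calls held in all 13 alternatives, and the meristem call in 6 of 13. Although the fitted fall grew along the root, a difference between the zones did not pass the test (edgeR adjusted p of the interaction of genotype and zone = 0.170). AOC has a pair of annotated transcripts, and the longer took 34.1% to 38.0% of its TPM in the means of the 6 groups, so the transcripts kept nearly the same proportions.

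opr3, the peroxisomal OPDA reductase of jasmonate synthesis, moved the opposite way. It had 47.2, 38.9 and 41.8 scaled TPM in the WT elongation zone and 57.7, 55.3 and 54.1 in *dgt*. The differentiation zone had 20.3, 20.0 and 20.6 against 29.4, 28.4 and 28.8, with replicates close together and a clear gap between the genotypes. opr3 rose 1.43-fold there (log2 fold change 0.52, standard error 0.11, edgeR adjusted p = 0.00361), a call that held in all 13 alternatives. Its rise of 1.31-fold in the elongation zone was weaker (0.39, standard error 0.13, edgeR adjusted p = 0.0446) and was kept in 5 of 13 alternatives. Meristem libraries had 34.1, 50.4 and 31.7 in WT, again with replicate 2 apart, and 44.0, 47.2 and 44.0 in *dgt*, a log2 fold change of 0.25 (standard error 0.18, edgeR adjusted p = 0.358).

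The related reductases opr2 and OPR1 are known from their relatives to act poorly on the natural precursor of jasmonate, and they reached the highest levels among the reductases. opr2 had 318, 442 and 363 scaled TPM in the WT meristem and 215, 214 and 204 in *dgt*. Elongation zone libraries had 612, 811 and 602 in WT and 327, 274 and 282 in *dgt*, so every *dgt* library lay below the WT range in these zones. The differentiation zone had 1169, 1697 and 1497 against 1366, 1596 and 1396, where the *dgt* libraries lay within the WT range. opr2 thus fell by 0.79 on the log2 scale in the *dgt* meristem (standard error 0.17, edgeR adjusted p = 0.0133) and by 1.19 in *dgt* elongation zone libraries (0.17, edgeR adjusted p = 0.000405), and its value in the differentiation zone was 0.01 (0.18, edgeR adjusted p = 0.971). The effect of *dgt* on opr2 differed between zones (edgeR adjusted p of the interaction = 0.00686, where 20% of 21969 genes were called), and it was the only gene of the 10 for which this test passed. The difference lay between the elongation and differentiation zones (1.19, standard error 0.26, edgeR adjusted p = 0.00810). Its 3 annotated transcripts kept their shares, with group means of 46.6% to 47.1%, 31.0% to 31.6% and 21.4% to 22.4% of the TPM.

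OPR1 lay between 54.0 and 167.3 scaled TPM in all libraries and was called in no zone. It had 54.0, 96.4 and 65.5 in the WT meristem against 90.6, 92.1 and 92.0 in *dgt*, a log2 fold change of 0.38 (standard error 0.21, edgeR adjusted p = 0.215), and 0.62 without WT meristem replicate 2 (edgeR adjusted p = 0.000617). Expected counts were not whole (to within 0.005) in 17 of 18 libraries for opr2 and AOS2 and in all 18 for OPR1, LOX1.1, AOC, opr3, Coi1 and MYC2, so part of their reads was divided among transcripts, and close copies such as opr2 and OPR1 are uncertain to that extent.

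Coi1, which codes for the jasmonate receptor, had the narrowest range of the 10 relative to its level, with 54.9 to 109.1 scaled TPM over all libraries. It had 109.1, 86.2 and 89.1 in the WT elongation zone and 65.5, 56.2 and 68.2 in *dgt*, and 85.4, 68.3 and 66.7 against 55.4, 54.9 and 56.3 in the differentiation zone. Both zones showed all *dgt* libraries below all WT libraries. Coi1 changed by -0.58 on the log2 scale in elongation zone libraries (standard error 0.15, edgeR adjusted p = 0.0137), kept in all 13 alternatives, and -0.39 in the differentiation zone (0.13, edgeR adjusted p = 0.0393), kept in 7 of 13. In the meristem the means were 89.0 ± 16.4 and 84.0 ± 7.85 (SD, n = 3 each).

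MYC2, the transcription factor that acts downstream of the receptor, was called in no zone between the genotypes. WT meristem replicates had 17.8, 11.2 and 21.4 scaled TPM against 16.4, 17.4 and 16.3 in *dgt*. The elongation zone had 50.3, 48.5 and 47.0 against 45.6, 44.4 and 60.2, and the differentiation zone 38.8, 45.0 and 41.5 against 43.8, 49.6 and 44.6. Genotypes overlapped in all zones. The log2 fold changes were 0.01, 0.05 and 0.15 with standard errors of 0.25, 0.15 and 0.12, the widest in the meristem. Changes well above 1 standard error can also be missed by these fits. AOS2 in the elongation zone, at -0.41 with a standard error of 0.15, was not called.

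Most of these genes also changed along the root. Neighbouring zones were compared within each genotype on its 9 libraries. From the meristem to the elongation zone 5 of 10 genes were called in WT, opr2, LOX1.1, OPR1 and MYC2 higher and AOS2 lower, where 68% of 20617 tested genes were called, 34.5% higher and 33.5% lower. In *dgt* 8 of 10 were called, with aos and loxD also higher and Coi1 also lower, against 79.1% of 21665 genes, 39.6% higher and 39.5% lower. From the elongation to the differentiation zone 6 of 10 were called in WT (50.5% of all genes, 30.2% higher and 20.2% lower), with opr2, LOX1.1, AOS2 and loxD higher and opr3 and aos lower, and 8 of 10 in *dgt* (63.3%, 31% higher and 32.3% lower), with OPR1 also higher and AOC also lower. A gene called in a single genotype is not thereby shown to differ between the genotypes. In WT the median gene rose by 0.22 on the log2 scale from the elongation to the differentiation zone, close to the median of 0.21 of the 10 genes. That shift of all genes depended on the scaling and on 1 library: it was 0.11 with RLE scaling, 0.055 in the fit on all 18 libraries and 0.046 without WT elongation zone replicate 1, where 19.5% of genes were called higher and 20.4% lower.

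LOX1.1 had the steepest course. It rose by 2.64 on the log2 scale from meristem to elongation zone in WT (standard error 0.47, edgeR adjusted p = 0.000464) and by 4.69 from there to the differentiation zone (0.50, edgeR adjusted p = 3.44e-05), and in *dgt* by 4.32 (0.31, edgeR adjusted p = 1.17e-08) and 3.84 (0.28, edgeR adjusted p = 4.49e-08). Every library of a zone lay above every library of the zone before it. opr2 rose by 0.92 and 1.28 in WT (standard errors 0.22 and 0.22) and by 0.37 and 2.30 in *dgt* (0.12 and 0.12). The larger fitted step thus came after the elongation zone in both genotypes. MYC2 rose 2.98-fold from meristem to elongation zone in WT (log2 fold change 1.58, standard error 0.25, edgeR adjusted p = 0.000190) and 2.77-fold in *dgt* (1.47, 0.12, edgeR adjusted p = 6.67e-08), and stayed at that level beyond, with values of -0.04 and -0.12 for the next step that were not called.

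Allene oxide synthase genes ran in opposite directions. AOS2 was lowest in the elongation zone, with a fall by 0.54 from the meristem in WT (standard error 0.17, edgeR adjusted p = 0.0132) and by 1.45 in *dgt* (0.15, edgeR adjusted p = 4.95e-07), and rises of 0.87 and 0.80 to the differentiation zone. aos had its highest mean in the elongation zone in both genotypes, with overlap between WT meristem and elongation zone libraries, and then fell by 2.59 in WT (0.30, edgeR adjusted p = 5.86e-05) and 2.46 in *dgt* (0.23, edgeR adjusted p = 5.90e-07), to under 1 scaled TPM in every differentiation zone library. opr3 also fell at this step, by 0.89 in WT and 0.95 in *dgt* (standard errors 0.17 and 0.09), whereas loxD rose by 1.45 and 1.56 (0.55 and 0.23). AOC fell by 0.79 at the same step in *dgt* (0.11, edgeR adjusted p = 2.14e-05), and by 0.28 in WT (0.17, edgeR adjusted p = 0.182). In WT the deviations from group means of like replicate numbers in these zones correlated at 0.140 to 0.416. An unlike pair, differentiation zone replicate 3 with elongation zone replicate 2, also reached 0.286, so a pairing by number is not shown. An alternative chosen after seeing the data used the replicate number as a block in the 6 WT libraries of these zones, without the WT meristem libraries. AOC (-0.45, edgeR adjusted p = 0.00137), Coi1 (-0.36, edgeR adjusted p = 0.00599) and OPR1 (0.31, edgeR adjusted p = 0.0332) were then called as well. Of all genes 68.4% were called in this fit, in place of 50.5%. With the block in the fit on 9 WT libraries AOC, Coi1 and OPR1 were not called, and 47% of all genes were. In that fit loxD was not called either (edgeR adjusted p = 0.083). The parts of the block and of leaving out the meristem libraries were not tested apart.

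**Figure D3:**
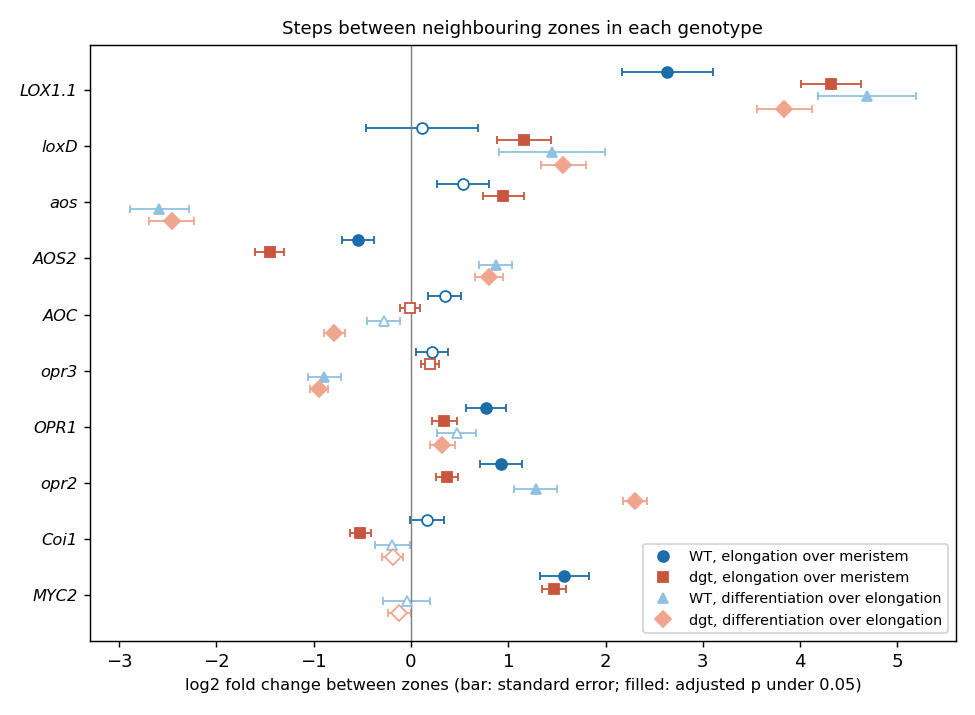
Log2 fold change between neighbouring zones (horizontal axis) for each of the 10 genes (vertical axis) in WT and *dgt*; bars are standard errors of fits on 9 libraries and filled symbols have an edgeR adjusted p under 0.05. LOX1.1 lies furthest right at both steps, MYC2 is right of 0 at the first step only, and aos lies near -2.5 at the second step in both genotypes.

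Ordered by mean scaled TPM in the WT differentiation zone, opr2 (1455) stood above LOX1.1 (451), OPR1 (141.9), Coi1 (73.5), AOC (71.2), MYC2 (41.8), AOS2 (40.7), opr3 (20.3), loxD (2.05) and aos (0.715). Coi1 and AOC, and MYC2 and AOS2, overlapped in their libraries, and the other neighbours in this order did not. In the WT meristem LOX1.1 stood at 3.40 ± 2.13 (SD, n = 3), below all members but loxD and about level with aos at 3.49 ± 0.624. The genes whose course over the 18 libraries was most like that of opr2, among 1104 genes with a symbol and a mean TPM over 2, were TAL, EXPB2 and fdh, with Pearson's r of log2(TPM + 0.1) of 0.98, 0.98 and 0.97. The libraries fall into 6 groups, so these values mainly describe the pattern over zones.

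Other genes of the pathway were taken from a list of competing branches, beta-oxidation, turnover, signalling and wound-responsive genes, with the lipoxygenase and synthase genes outside the highest 10. It matched 14 genes. PIN2, which in these files stands among the PIN auxin transporter genes and not among proteinase inhibitors, was left out, and loxF was listed at or near 0 in every library, with no test in any zone. Of the remaining list of 13, 12 were tested in the elongation zone, where 5 were higher (ARG1, ARG2, HPL, LOXB, AOS3) and 5 lower (DES, PPO, cevi57, LAPA1, LAPA2) in *dgt*, beside 27.1% of all genes called. Of 12 tested in the differentiation zone 2 were higher (ARG1, ARG2) and 2 lower (DES, PPO), beside 29.5% of all genes, and of 9 tested in the meristem 4 were higher (ARG1, ARG2, HPL, AOS3) and none lower, beside 22.8% of all genes. An unadjusted p under 0.05 was reached by 6 of the 9. The share of all genes at this unadjusted limit was not counted, so that count has no background beside it. The ARG2 call in the meristem was kept in 8 of 13 alternatives and was lost with the replicate block (edgeR adjusted p = 0.0707) and without replicate 1 or 3 of either genotype (0.0708 to 0.124). The median log2 fold changes were -0.16, -0.03 and -0.11, beside 0.01, 0.01 and -0.04 for all genes. Acx1A, the acyl-CoA oxidase of the beta-oxidation steps, and GAI, the DELLA gene, were tested in every zone and called in none.

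HPL, the hydroperoxide lyase that makes leaf aldehydes from lipoxygenase products, and DES, the divinyl ether synthase, went in opposite directions. HPL had 6.28, 11.4 and 6.81 scaled TPM in the WT meristem and 31.4, 33.1 and 30.4 in *dgt*, a rise of 3.96-fold (log2 fold change 1.98, standard error 0.23, edgeR adjusted p = 0.000965). It rose 2.13-fold in elongation zone libraries (1.09, 0.15, edgeR adjusted p = 0.00034). Its differentiation zone means of 12.2 ± 0.280 and 10.9 ± 1.75 (SD, n = 3 each) overlapped in their libraries. DES had 132.0, 80.7 and 88.3 in the WT elongation zone and 9.44, 6.58 and 4.73 in *dgt*, 14.4-fold less (-3.85, 0.27, edgeR adjusted p = 2.81e-06). In the differentiation zone DES had 21.9, 13.0 and 18.5 against 2.62, 3.84 and 4.55 (-2.26, 0.23, edgeR adjusted p = 4.46e-05). The genotypes did not overlap in any of these zones where a gene was called. AOS3, the allene oxide synthase known for the branch that does not lead to jasmonate, had 0.0521, 0.126 and 0.449 in the WT elongation zone and 0.899, 1.08 and 1.97 in *dgt* (expected counts 1, 3 and 9.92 against 23, 28 and 52, edgeR adjusted p = 0.00648). LOXB had 0.339, 0.304 and 0.120 there against 0.832, 0.740 and 1.70 (edgeR adjusted p = 0.00641). Both are low genes, at 1 to 11.5 expected counts in the WT libraries of that zone. The counts of LOXB were not whole in 17 of 18 libraries, so part of its reads was divided with other transcripts.

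The genes listed as wound-responsive did not move as a group. They were listed by symbol, and whether each of them responds to wounding or jasmonate was not tested here. PPO, a polyphenol oxidase gene, had 1598, 757 and 1005 scaled TPM in the WT elongation zone against 467, 224 and 263 in *dgt* (log2 fold change -1.81, standard error 0.32, edgeR adjusted p = 0.00151). It had 1058, 543 and 596 in the WT differentiation zone against 71.4, 64.1 and 139.5 (-2.98, 0.34, edgeR adjusted p = 8.16e-05). ARG1, an arginase gene, had 0.599, 1.54 and 1.51 in the WT elongation zone against 10.0, 8.92 and 14.0 in *dgt*, and rose by 3.14 on the log2 scale there (0.31, edgeR adjusted p = 3.03e-05), by 1.94 in the differentiation zone (0.14, edgeR adjusted p = 3.36e-06) and by 1.44 in the meristem (0.18, edgeR adjusted p = 0.00126). ARG2, the arginase gene known to be induced by wounding and jasmonate, had 0.690, 0.677 and 1.01 in the WT differentiation zone and 2.69, 2.39 and 2.67 in *dgt* (1.71, 0.27, edgeR adjusted p = 0.000702). LAPA1 and LAPA2, leucine aminopeptidase genes, fell by 0.71 and 0.63 in the elongation zone, where the LAPA1 call was kept in 8 of 13 alternatives. ARG2 and LAPA1 stood far below ARG1 and LAPA2. Means were 2.58 against 27.1 scaled TPM in the *dgt* differentiation zone and 1.89 against 139.8 in the *dgt* elongation zone. The expected counts of ARG2 and LAPA1 were not whole in any *dgt* library. Whether their calls are separate from those of ARG1 and LAPA2 was not tested. The summed shoot markers given above were also higher in every *dgt* library than in every WT library of the elongation and differentiation zones, and their part in these changes was not tested.

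**Figure D4:**
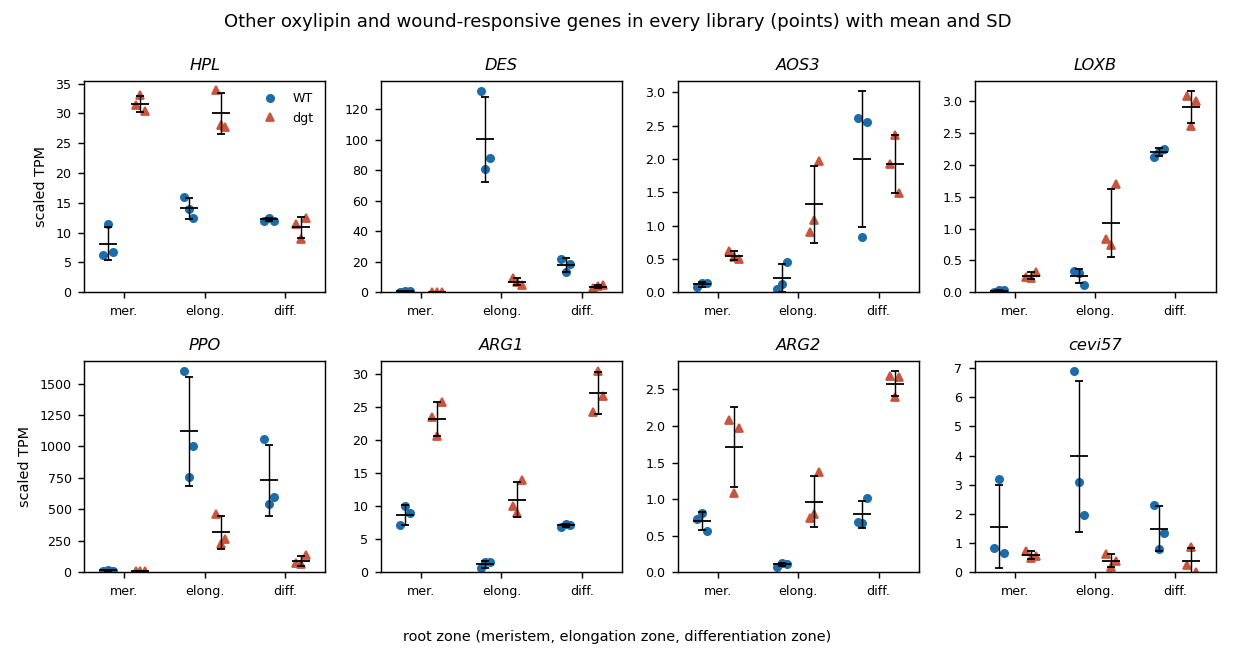
Scaled TPM (vertical axes, from 0) of 8 other genes, listed for oxylipin branches or wound response, in the 3 root zones (horizontal axis). Each library is 1 point (circles WT, triangles *dgt*), and bars give the mean ± SD of 3 libraries. HPL is above 30 in every *dgt* meristem library and at most 11.4 in WT, and DES is above 80 in every WT elongation zone library and below 10 in *dgt*.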

How the data were processed

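RNA was sequenced as single-end 51 bp reads. The authors called bases with CASAVA 1.8.2 and aligned reads with RSEM to transcripts of the NCBI genome of the tomato cultivar Heinz. They deposited, per library, expected counts per gene, not normalized, TPM values scaled by transcript length and library total, and the percent of a gene's TPM held by each transcript. The authors' tables of EBSeq fold changes and probabilities were not used. Reads shared by similar transcripts are divided by RSEM, which makes expected counts of close copies uncertain.

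After rounding of the expected counts, edgeR 4.0.16 under R 4.3.3 was used for testing (glmQLFit, glmQLFTest, filterByExpr with minimum count 10 and minimum total 15, TMM, prior count 0.125), and p-values were adjusted by Benjamini-Hochberg over all genes tested. Standard errors are the log2 fold change divided by the square root of F. *dgt* was compared with WT on the 6 libraries of a zone, zones on the 9 libraries of a genotype, and the interaction on all 18. Alternatives were RLE scaling, no filter, DESeq2 1.42.0, limma-voom 3.58.1, removal of a gene length trend, a replicate block, a fit on all 18 libraries, and leaving out each library. Whether the replicate numbers pair the samples was checked by correlating deviations from group means. Only between the WT elongation and differentiation zones were all 3 correlations of like numbers over 0.1 (0.140 to 0.416). Unlike numbers reached 0.286 between these zones, and 0.356 between WT elongation zone replicate 1 and WT meristem replicate 2. The check therefore does not show that the numbers pair the samples. The labels call the replicates biological. At 17919441 or more counts per library, precision is limited mainly by how much the 3 replicates differ, except for the lowest genes. The procedures were tested on simulated counts with 1 spread for all genes and libraries. Planted changes were recovered at 93.4% (interaction) to 100% (genotypes in the meristem), and 0.508% to 7.14% of calls were false. No library was simulated as lying apart from its group, so the test does not cover the wide spread of the WT meristem (0.305).

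The members and lists were chosen with earlier results of these data known. The text names all 10 members, the listed pathway genes called in a zone, and the 3 named genes most like the most abundant member. Tables and figures used Python 3.11.15 with pandas 2.3.3 and matplotlib 3.10.9.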

Additional observations from a re-analysis of the deposited data

Results flagged for a closer look

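The effect of *dgt* differed between zones, by edgeR's interaction test on all 18 libraries, for 1 of the 10 members and 6 of the 12 other listed genes tested, where 20% of all genes were called. Among the 10 members this was opr2 (edgeR adjusted p = 0.00686), lower in *dgt* in the meristem and elongation zone and not in the differentiation zone. It was called in all 24 alternatives, with adjusted p between 1.7e-05 and 0.0224.

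Among the other listed genes these were HPL (edgeR adjusted p = 8.24e-05), with log2 fold changes of 1.98 in the meristem, 1.09 in the elongation zone and -0.14 in the differentiation zone, ARG1 (0.00358), PPO (0.00414), LOXB (0.00524), AOS3 (0.0173) and DES (0.0183). ARG1 was higher in *dgt* in each zone, most in the elongation zone. PPO had log2 fold changes of -0.41, -1.81 and -2.98 from the meristem outwards. AOS3 had 2.19, 2.56 and -0.03, and in the WT meristem only 2, 4 and 3 expected counts stood behind its level. LOXB and DES were not tested in the meristem alone for low counts. In the elongation and differentiation zones the log2 fold changes were 2.12 and 0.42 for LOXB and -3.85 and -2.26 for DES. Meristem libraries of the genotypes did not overlap either, with LOXB higher and DES lower in *dgt*. The interaction test covers all zones together, so it does not place the difference between any pair of them. The interaction calls of DES and AOS3 were lost with limma-voom (adjusted p = 0.37 and 0.07), and that of DES also without *dgt* differentiation zone replicate 3 (edgeR adjusted p = 0.0579).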

How the results depend on the processing

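Of 41 calls of the 10 genes over 8 comparisons, 28 held in every alternative and none changed sign. In the meristem the number of genes called between genotypes was 3, but 1 with limma-voom and 1 with the replicate block (opr2), and 0 to 7 with a library left out. The shares of all genes called there were 22.8%, 21.8%, 15.1% and 9.93% to 52.7%, in the same order. With a library left out the number was 3 to 5 in the elongation zone (19.6% to 26.2% of all genes) and 3 to 5 in the differentiation zone (19.7% to 29.3%). In the differentiation zone it was 2 (AOC and opr3) in the fit on all 18 libraries (23% of all genes). The fall to 3 came without WT or *dgt* elongation zone replicate 3 and without *dgt* differentiation zone replicate 1. The number called by the interaction was 1, but 2 with RLE scaling, 2 without the filter, 2 with the length trend removed (opr2 and AOS2 in each) and 3 with DESeq2 (with LOX1.1), and 1 to 5 with a library left out, 5 without WT meristem replicate 2. Of all genes the interaction called 20%, with 19.2% for RLE scaling, 15.3% without the filter, 23.8% with the length trend removed and 24.7% with DESeq2. It called 15.1% to 37% with a library left out, the highest share without WT meristem replicate 2. With a library left out the zone steps had 4 to 6 and 5 to 6 genes in WT and 7 to 9 and 7 to 8 in *dgt*. Shares of all genes were then 62% to 71.6% and 39.9% to 46% in WT, and 74.8% to 78.2% and 57.3% to 62.3% in *dgt*. Among the 10 genes the replicate block changed, besides the WT zone step given in the report, the calls of AOC (edgeR adjusted p = 0.0909) and aos (0.0967) in the meristem. Like numbers of the WT and *dgt* meristem had correlations of -0.095 to 0.099. The values that changed sign were all uncalled. With a library left out, the log2 fold change between genotypes ran from -0.172 to 0.067 for Coi1 and from -0.222 to 0.233 for MYC2 in the meristem, from -0.103 to 0.128 for MYC2 and from -0.277 to 0.020 for aos in the elongation zone, and from -0.123 to 0.12 for opr2 and from -0.097 to 0.384 for aos in the differentiation zone. From the meristem to the elongation zone it ran from -0.034 to 0.414 for Coi1 and from -0.270 to 0.564 for loxD in WT, and from -0.058 to 0.199 for AOC in *dgt*. From there to the differentiation zone MYC2 ran from -0.195 to 0.004 in WT and from -0.195 to 0.025 in *dgt*. With the length trend removed, Coi1 in the meristem was at 0.001, MYC2 in the elongation zone at -0.013 and the AOC step in *dgt* at 0.112. In the fit on all 18 libraries MYC2 in the meristem was at -0.004, opr2 in the differentiation zone at -0.002 and the AOC step at 0.101, which was 0.047 with RLE scaling and 0.046 with DESeq2. The cause of these changes was not tested. Of 24 calls of the other listed genes, 20 held in every alternative. Low expected counts of loxD, AOS3 and LOXB, and 3 replicates per group, limit what smaller differences could be seen.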

Other observations

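Some lipoxygenase and JAZ genes whose symbols in the files do not match the name rule were picked after values of these data had been seen. Their names were looked up in the RefSeq table by transcript. No full search of these families was made, so these genes do not stand for them, and their values are given with no test. TomloxE had 0.685, 1.45 and 0.808 scaled TPM in the WT meristem and 24.0, 20.3 and 29.3 in *dgt*. In the elongation zone it had 23.1, 23.0 and 12.8 against 63.9, 47.8 and 76.5, and in the differentiation zone 146.3, 105.8 and 95.0 against 112.4, 90.6 and 110.9, where the genotypes overlapped.

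TomloxC, the lipoxygenase known to supply hydroperoxide lyase in tomato fruit and leaves, had 0, 0 and 1 expected counts in the WT meristem and 31, 24 and 17 in *dgt*, and 0, 1 and 0 against 15, 41 and 48 in the elongation zone. It had 0 to 3 counts in the differentiation zone libraries. The repressor gene JAZ2, listed in the files as LOC100134911, had 6, 1 and 2 expected counts in the WT elongation zone and 26, 21 and 30 in *dgt*, with no overlap. SLJAZ3, listed as SRG1, lay at 0.240 to 1.76 scaled TPM in all libraries.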
